A study of Saccharomyces cerevisiae with 180 samples.

Results

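Mitochondrial ribosomal protein genes of budding yeast, called MRP genes here, were taken by name: nuclear genes whose symbol is MRPL, MRPS, MRP or RSM followed by a number. The rule found 67 of 6002 protein-coding genes, on 14 chromosomes, and did not use any measured value. For each gene, every nucleosome of the deposited atlas whose centre lay in the coding region or up to 300 bp upstream of the start codon was used. By a list of symbols, 37 genes were placed in the large subunit and 28 in the small subunit. That list left out MRP35, which the RefSeq gene table names bL35m and which did not reach the read minimum, and MRP8, which has no ribosomal protein name in that table.

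Histone H3 and 4 of its marks were mapped by combinatorial indexed immunoprecipitation, in which nucleosomes released by micrococcal nuclease are bound by a first antibody and then offered to a second. All strains were grown in rich YPD medium at 30 °C and fixed with 1% formaldehyde. The first library set held strains with wild-type H3, H3K4R, H3K18R or H3K36R, in which lysine 4, 18 or 36 of H3 is replaced by arginine. The second held a reference strain labelled bar1 and titled as wild type, a strain labelled set2 and a strain labelled eaf3. First antibodies were directed at K4me3, K18ac, K36me3 and K79me3, and in the first set also at H3. The same antibodies served in the second step, and an Input sample was taken in place of a second precipitation. The labels do not spell Input out, and it was taken to be what the first antibody bound. With 1 library for every such combination, differences have no replicate check and no test was possible. Intervals cover counting error only, and reads copied by PCR are not independent molecules.

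Mitochondrial ribosomes translate the few proteins encoded by mitochondrial DNA, among them core subunits of the respiratory chain. Nearly all proteins of these ribosomes are made in the cytosol from nuclear genes and imported. Name prefixes mark ancestry: u for proteins shared by all ribosomes, b for those shared with bacteria and m for those of mitochondrial ribosomes only. In yeast, K4me3 is deposited by Set1 near the 5-prime ends of transcribed genes, K36me3 by Set2 over gene bodies and K79me3 by Dot1 over transcribed regions, and K18ac is an acetylation of active promoters and 5-prime ends. Eaf3, a subunit of the Rpd3S deacetylase complex, binds methylated lysine 36.

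The genes are short. Coding lengths ran from 213 bp in MRPL39 (bL33m) to 1887 bp in RSM22, with a median of 699 bp against 1200 bp over all genes. RSM22, whose protein is related to methyltransferases, was placed in the small subunit by its symbol. Like MRP8, it has no ribosomal protein name in the RefSeq gene table. The 67 genes held 366 nucleosomes, 296 of them in the coding region and 70 upstream, or 3 to 13 per gene. Of these, 22 had their centre in another gene as well. The nearest upstream neighbour lay on the opposite strand in 38 cases, called divergent, and on the same strand in 29, called tandem. It overlapped the coding region in MRP4 and MRPL51 (divergent) and in MRPL19 (tandem), and these genes were kept. Because the marks depend on distance from the start codon, genes of 300 to 1200 bp other than MRP genes (2649 genes, median 757 bp) served as the length-matched comparison and are called other short genes.

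Library depth ran from 150 to 2693698 reads with a median of 110476, and 32 of 180 libraries held under 10000. The MRP genes received 397217 reads over all libraries. The strain labelled set2 held 3.58% of the SET2 reads expected from the other strains of its set, and the strain labelled eaf3 held 6.25% of the EAF3 reads expected. In the strain labelled bar1, BAR1 was present at 128% of expectation while NAM7 was at 1.21%, so each direction given for the strains labelled set2 and eaf3 is relative to a strain that goes against its label. The wild-type H3 library with H3 and Input was shallow (187203 reads), and single MRP genes held 2 to 44 reads in it. Genes were compared only if H3 with Input summed over the 4 strains of the first set reached 50 reads. This left 5095 genes, of which 43 were MRP genes. The 24 others were short, 213 to 744 bp, and enter the values summed over MRP genes.

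In wild-type H3 cells, the MRP genes held a larger share of the K4me3 and K18ac libraries than of the H3 library, and a smaller share of the K36me3 library. All 67 genes together received 0.98% of the reads of the K4me3 library with Input (7415 reads), 0.77% for K18ac (7995), 0.48% for K79me3 (7027) and 0.35% for K36me3 (8849), against 0.48% for H3 (901). The share of H3 was nearly the same in the other strains of the set, at 0.47% in H3K4R, 0.45% in H3K18R and 0.48% in H3K36R. Other short genes held 33.0% of the K4me3 library, 29.5% for K18ac, 20.2% for H3, 16.2% for K79me3 and 13.6% for K36me3, so that K79me3 was below H3 there and level with H3 in the MRP genes.

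Along the genes, K4me3 formed a plateau over the first 450 bp and was lower beyond it. Reads summed over MRP genes and divided by H3 summed over the 4 strains of the first set gave a log2 ratio of 0.51 (95% exact binomial interval 0.33 to 0.70) in the 150 bp farthest upstream. The ratio was 1.42 (1.28 to 1.56) over the first 150 bp of coding sequence, 1.44 (1.32 to 1.57) over the next 150 bp and 1.51 (1.38 to 1.65) from 300 bp. It was 1.00 from 450 bp, 0.59 from 600 bp, -0.15 from 750 bp and -0.61 from 900 bp. Other short genes reached 0.84, 0.98 and 0.98 over the 3 plateau windows, lower than the MRP genes by more than the counting error, and both sets had crossed 0 by 900 bp.

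K18ac on the MRP genes had its highest ratio in the first 150 bp of coding sequence and was lower from 450 bp. Its log2 ratio was 0.92 (0.69 to 1.14) in the 150 bp before the start codon and 1.09 (0.95 to 1.24) in the 150 bp after it. It was 0.89 (0.77 to 1.02) from 150 bp and 0.86 (0.72 to 0.99) from 300 bp, with intervals that overlapped those around the start codon. It was 0.47 from 450 bp and 0.14 from 750 bp. Over the first 150 bp other short genes had 0.77.

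K36me3 ran in the opposite direction. It was lowest just upstream of the start codon, at -2.19 (-2.50 to -1.89), was -0.39 (-0.53 to -0.26) from 300 bp and reached 0 at 450 bp (0.09, interval -0.05 to 0.23). From 600 bp it was 0.41 (0.26 to 0.56), where other short genes had 0.13. K79me3 was the flattest mark on the MRP genes. It lay between -0.14 and 0.40 in every window from 150 bp upstream onward. In other short genes it was lower at the 5-prime end, with -0.58 over the first 150 bp where the MRP genes had 0.01 (-0.15 to 0.16). The windows from 900 bp rest on 12 genes and the window from 1050 bp on 4.

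**Figure D1:**
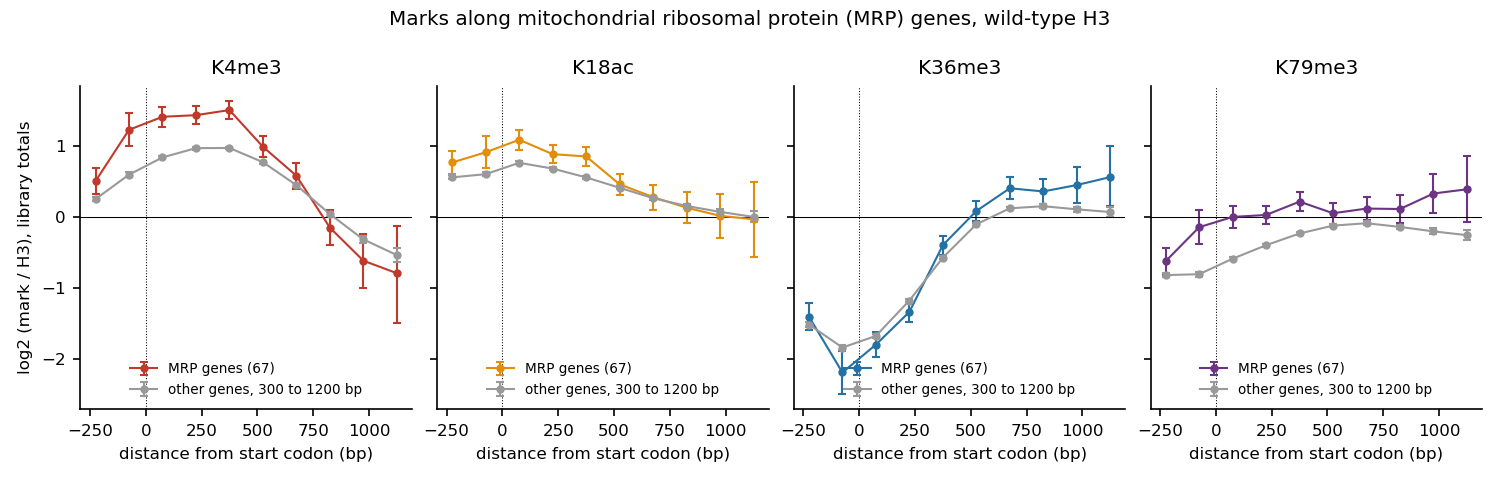
Log2 ratio of each mark to H3 (library totals, H3 with Input summed over the 4 strains of the first set) in 150 bp windows by distance from the start codon, for all 67 MRP genes (colour) and other short genes (grey). Points are sums over genes in 1 library of the mark and bars are 95% exact binomial intervals. The MRP genes' K4me3 plateau at 1.42 to 1.51 lies above that of other short genes, and K36me3 passes 0 at 450 bp in the MRP genes.

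The direction of the upstream neighbour went with the marks of the upstream nucleosomes. Over the 38 MRP genes with a divergent neighbour the summed upstream K36me3 ratio was -2.41 (-2.67 to -2.15), on 188 reads. Over the 29 MRP genes with a tandem neighbour it was -1.06 (-1.27 to -0.84), on 408 reads. Upstream K4me3 was 1.05 (0.87 to 1.24) with a divergent neighbour and 0.45 (0.23 to 0.67) with a tandem one. Over the first 500 bp of coding sequence K36me3 was -0.71 (-0.81 to -0.61) with a divergent neighbour and -1.02 (-1.14 to -0.90) with a tandem one, the reverse of the upstream order. From 500 bp on it was 0.34 (0.22 to 0.45) and 0.37 (0.23 to 0.51), with overlapping intervals.

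Gene by gene, the level of a mark was the log2 ratio of its CPM (counts scaled to equal library totals) to that of H3 over the whole window, with a pseudocount of 1 CPM, centred on the median of all 5095 genes. The MRP gene median of K4me3 was 0.71, against 0.47 in other short genes, and 38 of 43 MRP genes were above the median of all genes. At least 2-fold higher were 14 MRP genes and at least 2-fold lower 0, where 12.1% and 18.3% of all genes were called. For K18ac the median was 0.49 (other short genes 0.40), with 5 MRP genes higher and 0 lower against 8.69% and 6.4% of all genes. K36me3 had a median of -0.38 (other short genes -0.57), with 2 MRP genes higher and 11 lower against 6.03% and 20.2%. K79me3 had a median of -0.07 (other short genes -0.29), with 3 MRP genes higher and 2 lower against 2.92% and 12.4%. With edgeR's TMM scaling and no centring, the MRP gene median of K79me3 was 0.05.

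These levels share 1 shallow H3 library as denominator, so counting error in it moves the 4 levels of a gene together. Against H3 summed over the 4 strains, the spread between MRP genes was narrower and the medians changed less than the counts. K4me3 then had a median of 0.78, with 42 of 43 MRP genes above 0 and an SD between MRP genes of 0.32, where other short genes had 1.17. The number at least 2-fold higher was 6 and lower 0, against 6.77% and 17.3% of all genes. K18ac had a median of 0.39, with 1 higher and 0 lower against 3.91% and 5.06%. K36me3 had a median of -0.24, with 0 higher and 7 lower against 0.844% and 20.9%. K79me3 had a median of 0.08, with 0 higher and 1 lower against 0.0589% and 11.7%.

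**Figure D2:**
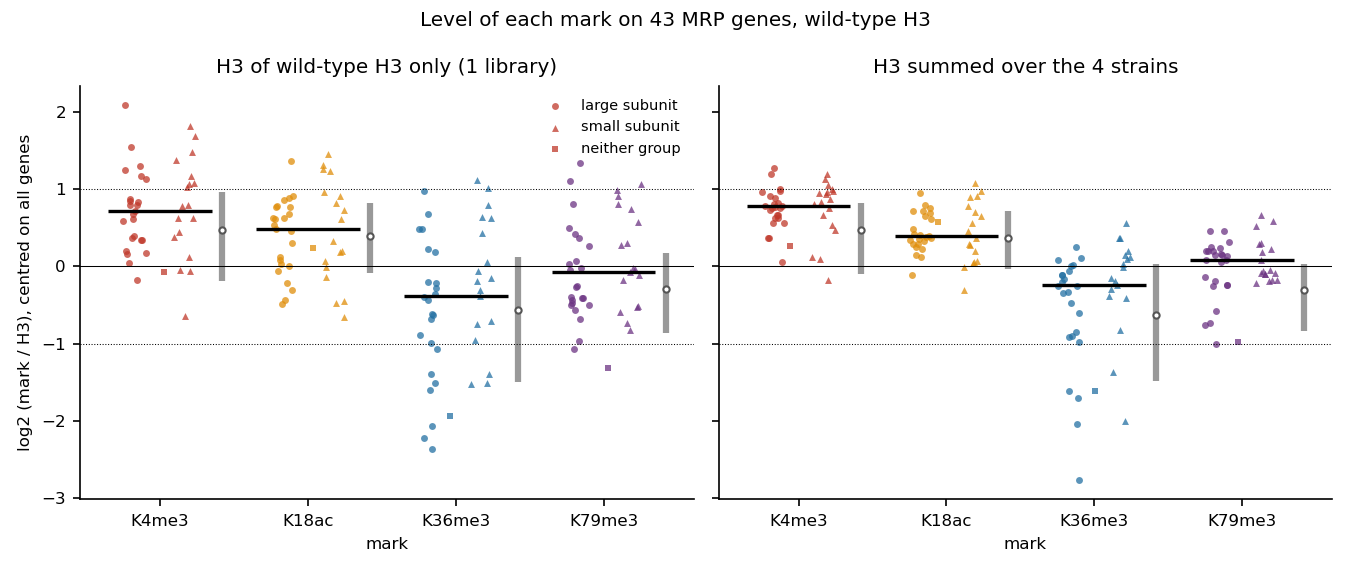
Level of each mark on the 43 MRP genes that passed the read minimum, as log2 of mark over H3 centred on all genes, with the H3 library of wild-type H3 (left) or H3 summed over the 4 strains (right). Circles are large-subunit genes, triangles small-subunit genes and squares genes in neither group, black lines are MRP gene medians, grey bars span the quartiles of other short genes with their median as an open circle, and dotted lines mark 2-fold. K4me3 lies above 0 for 38 MRP genes on the left and 42 on the right.

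The large and small subunits were compared by their medians, with no test of the difference. With H3 summed over the 4 strains, the K4me3 median was 0.76 in the 24 large-subunit genes and 0.85 in the 18 small-subunit genes. K18ac gave 0.38 and 0.41, K36me3 -0.30 and -0.08, and K79me3 0.11 and -0.06. The SD between single MRP genes was 0.32 for K4me3, 0.31 for K18ac, 0.74 for K36me3 and 0.38 for K79me3.

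The highest K4me3 level was on MRP20 (YDR405W, chromosome IV, 1277646 to 1278437 of sacCer3, plus strand), which encodes uL23m, a protein of the large subunit at the polypeptide exit tunnel. It held 129 K4me3 reads and 6 H3 reads in wild-type H3, a level of 2.09 (0.96 to 3.60), and 1.20 (0.75 to 1.69) against H3 of the 4 strains. On its 5 nucleosomes, in order from the start codon, K4me3 was 36.9, 46.1, 38.2, 26.4 and 22.4 CPM, while K36me3 went from 4.8 on the first to 18.3 on the last. Along this coding region of 792 bp, K36me3 was higher on each successive nucleosome and K4me3 was highest on the nucleosome at 150 bp. RSM24 (YDR175C, mS35) followed at 1.81 (0.82 to 3.08) on 8 H3 reads, and MRPS8 (YMR158W, uS8m) at 1.68 (0.62 to 3.06) on 7. Against H3 of the 4 strains these were 0.81 (0.41 to 1.23) and 1.19 (0.72 to 1.72).

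The lowest K4me3 levels were on MRP4 (YHL004W, uS2m), MRPL1 (YDR116C, uL1m) and MRP8 (YKL142W). MRP4 had -0.64 (-1.14 to -0.12) on 139 K4me3 and 44 H3 reads, the most H3 reads of any MRP gene. MRPL1 had -0.17 and MRP8 -0.07. Against H3 of the 4 strains the level of MRP4 was -0.18 (-0.51 to 0.16), and MRPL1 and MRP8 were at 0.37 and 0.26.

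For K18ac the highest MRP genes were RSM24 at 1.45 (0.45 to 2.71), MRPL9 (YGR220C, uL3m) at 1.36 (0.42 to 2.54) and MRPS35 (YGR165W, mS45) at 1.32 (0.49 to 2.31). Of these, MRPS35 was the one still 2-fold above all genes with H3 of the 4 strains, at 1.08 (0.69 to 1.51). The lowest were RSM28 (YDR494W, mS46) at -0.66, MRPL15 (YLR312W-A, mL57) at -0.49 and MRP4 at -0.48, each with an interval that reached 0.

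K36me3 varied most between MRP genes and went with their length. MRP51 (YPL118W, bS1m, 1035 bp), a protein tied to translation of COX2 and COX3 mRNA, was highest at 1.11 (0.30 to 2.09), or 0.55 (0.22 to 0.91) with H3 of the 4 strains. Its K36me3 was 2.0 CPM on the upstream nucleosome and 29.1 CPM on the nucleosome at 612 bp. RSM24 at 1.01 (0.02 to 2.25) and MRP20 at 0.98 (-0.16 to 2.47) came next, and both were near 0 with H3 of the 4 strains, at -0.01 and 0.08. The lowest were MRP49 (YKL167C, mL61, 414 bp) at -2.36 (-3.39 to -1.43), MRPL51 (YPR100W, mL43, 423 bp) at -2.23 (-3.61 to -0.97) and MRPL19 (YNL185C, uL11m, 477 bp) at -2.07 (-3.01 to -1.18). With H3 of the 4 strains they stayed more than 2-fold below all genes, at -2.04, -2.77 and -1.70. On the 4 nucleosomes of MRPL51, 3 of which also lie in another gene, K36me3 held 1, 5, 6 and 8 reads and K4me3 held 4, 20, 20 and 16. Across the 43 MRP genes coding length and K36me3 level went together (Spearman 0.71, Pearson 0.72, log2 length). For K79me3 the values were 0.46 and 0.43, and for K4me3 0.07 and -0.01. Spearman values for K36me3 were 0.47 over all 5095 genes and 0.35 over the 2078 of 300 to 1200 bp, MRP genes included. The window of a short gene holds mostly the 5-prime end, where K36me3 was low, and its part here was not tested.

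K79me3 was highest on MRP20 at 1.34 (0.20 to 2.84), MRPL9 at 1.10 (0.15 to 2.27) and MRP51 at 1.06 (0.23 to 2.05), genes with 6, 9 and 12 H3 reads. It was lowest on MRP8 at -1.31 (-2.17 to -0.42), MRP49 at -1.07 (-1.96 to -0.12) and MRPL19 at -0.96 (-1.81 to -0.06). With H3 of the 4 strains these were 0.45, 0.45 and 0.52 for the high group and -0.97, -0.73 and -0.58 for the low group. Over the 43 MRP genes the Spearman correlation of levels was 0.84 for K36me3 with K79me3, 0.80 for K4me3 with K79me3 and 0.79 for K4me3 with K18ac, all through a shared H3 library. Over all 5095 genes the same pairs gave 0.85, 0.39 and 0.75.

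The MRP genes with the most reads show the pattern in single genes. RSM22 (YKL155C, chromosome XI, 159456 to 161342, minus strand) held 16084 reads over all libraries, RSM23 (YGL129C, mS29, a protein with a GTP-binding domain) 13423, MRP4 10712 and MRP13 (YGR084C, mS44) 9898. Along the 13 nucleosomes of RSM22, K4me3 climbed from 25.0 CPM upstream to 44.8 on the nucleosome at 365 bp and was at most 10.5 on each nucleosome from 840 bp on. K36me3 was 3.6 upstream, 1.2 on the nucleosome at 23 bp and 18.7 to 28.7 from 840 bp on. K18ac had a high value near the start codon (32.7 at 192 bp), a minimum of 8.7 at 840 bp and 26.0 to 30.8 on the last 3 nucleosomes. The level of K4me3 over the whole window was near that of all genes, -0.05 (-0.54 to 0.47).

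RSM23 had less K4me3 and more K36me3 farther into the gene. K4me3 was 48.8 CPM near the start of the coding region and 11.9 on the nucleosome at 978 bp, and K36me3 was 5.6 and 29.9 on the same nucleosomes. K79me3 was 13.7 just before the start codon and 30.2 at 978 bp. The shortest MRP gene, MRPL39 (YML009C), held 3 nucleosomes and did not reach the read minimum. Its K4me3 was 6.6, 11.9 and 15.8 CPM, and its K36me3 was 17.1 on the upstream nucleosome, 1.2 at 11 bp and 2.8 at 195 bp.

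**Figure D3:**
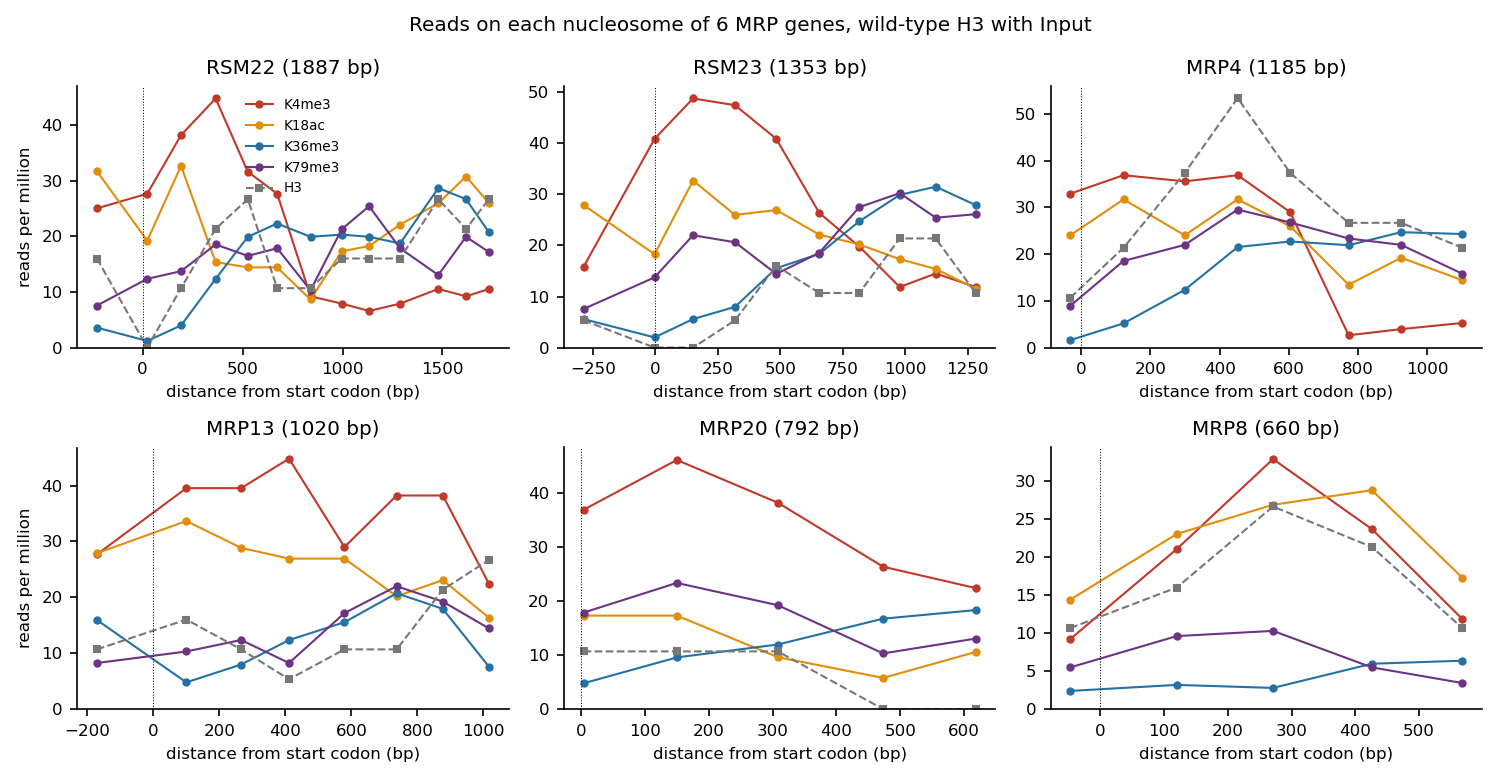
Counts scaled to the library total (CPM) on each nucleosome of RSM22, RSM23, MRP4, MRP13, MRP20 and MRP8 in wild-type H3 libraries with Input, by distance of the nucleosome centre from the start codon (bp), 1 library per mark. Solid lines are the 4 marks and the dashed line is H3. In RSM23, K4me3 drops from 48.8 near the start to 11.9 at 978 bp while K36me3 goes from 5.6 to 29.9, and MRP8 has little K36me3 throughout.

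Other genes of mitochondrial translation had a lower K4me3 median than the MRP genes. The list held 52 genes, of which 45 passed the read minimum, with a median length of 1328 bp. Their K4me3 median was 0.04 with 3 genes at least 2-fold higher and 2 lower, against 0.71 and 14 of 43 in the MRP genes. Their K18ac median was -0.04, K36me3 -0.16 and K79me3 -0.05. Within the list, the 7 tested ribosomal proteins that carry other names had a K4me3 median of 0.68, with 2 at least 2-fold higher, YML6 (uL4m) at 1.16 and MHR1 at 1.06. The 13 mitochondrial aminoacyl-tRNA synthetases had 0.04, with DIA4 highest at 1.38. Length differs between these lists and moves with the marks, and its part in the difference was not tested. Cytoplasmic ribosomal protein genes (96 tested) had K4me3, K18ac, K36me3 and K79me3 medians of 0.93, 0.92, 0.48 and -0.23.

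Sequential precipitation addresses whether a pair of marks shares nucleosomes, as far as each antibody keeps to its mark. Each pair library was compared with the Input library of its own first antibody, per gene and centred on all genes, so a value above 0 says that a gene took a larger share after the second antibody than the median gene did. After K36me3, K79me3 and K18ac as first antibody, the largest MRP gene median came with K4me3 as second. It was 0.88 after K36me3 (other short genes 0.63), 0.70 after K79me3 (0.50) and 0.52 after K18ac (0.24). After K36me3, 15 of 43 MRP genes were at least 2-fold higher and 0 lower, where 12.1% and 16.3% of all genes were called. After K79me3 10 were higher and 0 lower, against 12.1% and 17.7%, and after K18ac 4 and 0, against 3.28% and 12.7%. Taken as a share of the library, the MRP genes held 0.71% of the reads of K36me3 followed by K4me3 (2738 reads), where K36me3 with Input had 0.35%. The combination of K36me3 followed by K4me3 was as deep in H3K36R, which has no lysine 36 to methylate (390200 reads), as in wild-type H3 (383876), and the part of the antibody in its values was not tested.

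K18ac as second antibody gave positive MRP gene medians on few reads: 0.63 after K36me3 (338 reads over all MRP genes), 0.34 after K4me3 (549) and 0.18 after K79me3 (214), or -0.11 with edgeR's TMM scaling. Their interquartile ranges ran from -0.22 to 1.33, from -0.38 to 0.65 and from -0.84 to 1.13. With K36me3 as second antibody the medians were below 0, at -0.15 after K4me3, -0.19 after K79me3 and -0.28 after K18ac, each closer to 0 than in other short genes (-0.35, -0.47 and -0.35). K79me3 as second antibody gave medians near 0, with 0.03 after K36me3, -0.10 after K4me3 and 0.12 after K18ac.

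The pair libraries also show where on the MRP genes their reads lay. Of the MRP gene reads of K18ac followed by K4me3, 13.5% (95% exact binomial interval 12.1 to 15.0) were at or beyond 500 bp from the start codon, and 15.7% (12.7 to 19.0) for the reverse order. K36me3 followed by K4me3 placed 35.5% (33.7 to 37.3) there, between K4me3 with Input at 19.2% (18.3 to 20.1) and K36me3 with Input at 54.1% (53.0 to 55.1). The reverse order, K4me3 followed by K36me3, gave 41.6% (37.2 to 46.2). In H3K36R, which has no lysine 36 to methylate, K36me3 followed by K4me3 lay nearer the start codon. Its log2 ratio of reads beyond 500 bp to coding reads within it was -1.91, against -0.69 in wild-type H3. The part of the antibody in these shares was not tested.

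The MRP genes with the most reads differed among themselves. MRP13 was higher in all 3 libraries with K4me3 second, by 0.95 (0.59 to 1.31) after K36me3, 1.20 (0.67 to 1.70) after K79me3 and 0.54 (0.09 to 0.97) after K18ac. On RSM22 and RSM23, the longest MRP genes, the same values were 0.13 and -0.23, 0.14 and -0.04, and -0.34 and 0.22, with intervals that all included 0. MRP4 had 0.66 (0.32 to 0.99) after K36me3, 0.27 after K79me3 and 0.06 after K18ac.

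**Figure D4:**
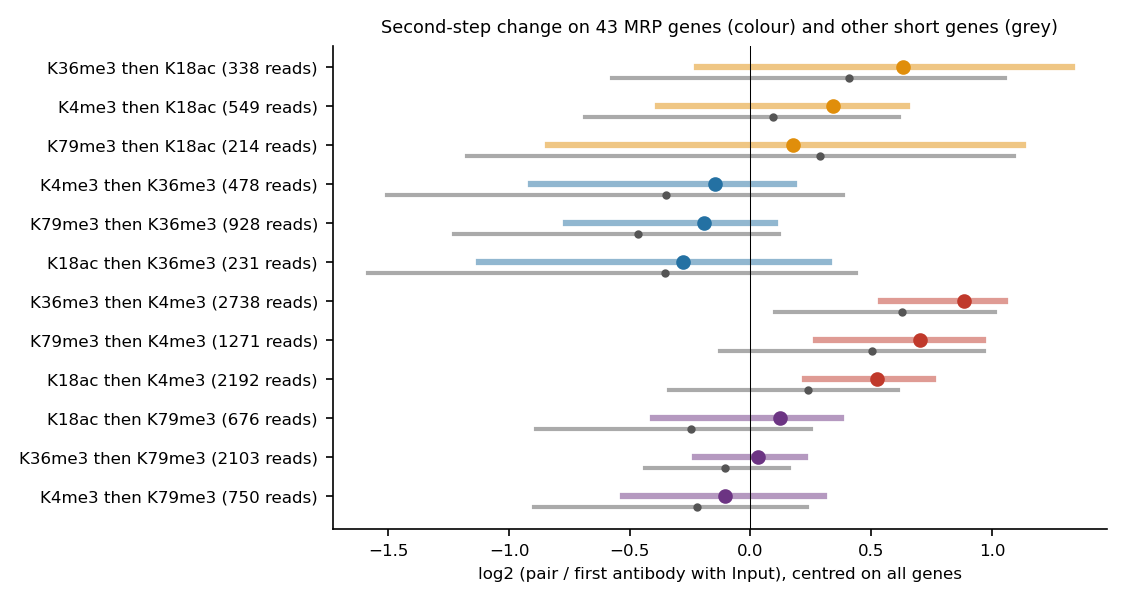
Change of each pair library of wild-type H3 from the Input library of its first antibody, as log2 centred on all genes. Large coloured dots are medians of the 43 MRP genes and coloured bars their quartiles, grey dots and bars the same for other short genes, and the labels give the MRP gene reads of each pair library. The 3 libraries with K4me3 second have MRP gene medians of 0.52 to 0.88.

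Between strains, a mark was compared as the log2 ratio of its Input library in the strain to that in the reference of the same set, centred on all genes. These ratios were not divided by H3, which was not mapped in the second set. A change of mark was therefore not separated from a change of nucleosome occupancy. Comparisons were made where both libraries held at least 100000 reads, which left 15 and dropped 5, among them K4me3 in H3K4R (3639 reads) and K36me3 in the strain labelled set2 (24149). Comparisons within a set share their reference library. As a yardstick, the strain labelled bar1 against wild-type H3, both nominal wild types, gave MRP gene medians of -0.10 for K4me3, -0.08 for K18ac and -0.16 for K36me3, with SDs between MRP genes of 0.37, 0.24 and 0.66.

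The pull-down with the K36me3 antibody in H3K36R, which has no lysine 36 to methylate, gave the largest differences. The median was 0.95 (other short genes 0.71). Of 43 MRP genes 20 were at least 2-fold higher and 0 lower, where 14.5% and 17.4% of all genes were called. The MRP genes held 0.91% of this library (3939 of 434317 reads), as much as of the K4me3 library of the same strain (0.91%). They held 0.35% of the wild-type K36me3 library (8849 of 2509006 reads). Higher thus means a larger share of a smaller library. Summed over MRP genes, coding reads within 500 bp numbered 2685 in H3K36R and 3469 in wild-type H3. Within 500 bp of the start codon, 53 of 59 MRP genes with at least 20 H3 reads there were 2-fold higher and 0 lower (67% and 5.93% of genes). Beyond 500 bp 1 of 28 was higher and 7 were lower (2.5% and 51.2%). The share of coding reads at or beyond 500 bp was 23.1% (21.7 to 24.5), next to 22.7% (21.8 to 23.6) for K4me3 in the same strain and 58.0% (56.9 to 59.0) for K36me3 in wild-type H3. The largest values were on MRPL51 and MRPS8, short genes low for K36me3 in wild-type H3, whose K36me3 library is the denominator here. MRPL51 went from 7.97 to 80.6 CPM (log2 change 2.85, 2.17 to 3.88) and MRPS8 was 96.7 in H3K36R (2.58, 1.97 to 3.41).

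In H3K36R the other marks of the MRP genes differed little from wild-type H3. K4me3 had a median of -0.09, equal to that of other short genes, and 0 of 43 MRP genes were at least 2-fold changed (4.26% of all genes). MRP8 at 0.39 (-0.02 to 0.82) and MRP4 at 0.33 (0.02 to 0.64) had the largest increases, and RSM25 (YIL093C, mS23) at -0.49 (-0.82 to -0.16) and MRPL35 (YDR322W, mL38) at -0.41 (-0.74 to -0.09) the largest decreases. K18ac had a median of -0.09, with 0 changed (0.824%). RSM28 at 0.55 (0.19 to 0.93) and MRPL15 at 0.37 (-0.01 to 0.77) were highest, and MRPL16 (YBL038W, uL16m) at -0.76 (-1.21 to -0.34) and MRPL24 (YMR193W, bL28m) at -0.65 (-0.99 to -0.32) lowest. K18ac on the MRP genes lay farther into the gene, with 33.0% (31.9 to 34.1) of coding reads at or beyond 500 bp against 27.7% (26.6 to 28.8) in wild-type H3, and the K4me3 share was 22.7% against 22.1%. Other short genes went the same way, with 35.3% against 31.8% for K18ac and 30.1% against 28.6% for K4me3. Beyond 500 bp 0 of 28 MRP genes were 2-fold changed for K4me3 or K18ac, where 9.75% and 2.32% of genes were. K79me3 had a median of 0.23 (other short genes 0.11) with 33 of 43 MRP genes above 0 and 0 changed 2-fold (1.39%).

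In the strain labelled set2, K4me3 and K18ac both had an MRP gene median of -0.22, next to -0.21 and -0.19 in other short genes. In the strain labelled eaf3 they had -0.19 and -0.13, next to -0.21 and -0.17. For K4me3, 0 of 43 MRP genes were at least 2-fold changed in either strain (3.77% and 3.26% of all genes). For K18ac 1 MRP gene was changed in each (0.471% and 0.589%). The share of the MRP genes in the K4me3 library was 0.89% in the strain labelled bar1 and 0.72% in both set2 and eaf3, and for K18ac 0.71% and 0.59%.

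Reads of K4me3 and K18ac on the MRP genes lay farther into the gene in the strains labelled set2 and eaf3. The share of coding reads at or beyond 500 bp for K4me3 was 24.9% (23.7 to 26.3) in the strain labelled bar1, 30.6% (29.4 to 31.9) in set2 and 31.5% (30.6 to 32.5) in eaf3. For K18ac it was 28.3% (27.4 to 29.2), 36.2% (34.9 to 37.6) and 33.3% (32.1 to 34.5). Other short genes went the same way by less, from 30.4% to 34.1% and 34.7% for K4me3 and from 33.2% to 37.6% and 36.4% for K18ac. The strain labelled bar1 and wild-type H3 differed by 24.9% against 22.1% for K4me3.

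RSM22, the longest MRP gene, had the largest K18ac increase in both set2 and eaf3. Its K18ac was 193 CPM in the strain labelled bar1, 274 in set2 (log2 change 0.57, 0.34 to 0.81) and 233 in eaf3 (0.35, 0.12 to 0.59). It was 277 in wild-type H3, 228 in H3K4R and 251 in H3K36R, so the strain labelled bar1 was the lowest of these. K4me3 was 244 in bar1 and 314 in set2 (0.44, 0.14 to 0.74). The change lay beyond 500 bp, where K4me3 differed by 1.03 and K18ac by 0.96 in set2, while the first 500 bp had -0.33 and -0.24. Over the 28 MRP genes with enough reads beyond 500 bp, 2 were 2-fold changed for each mark in set2 (14.2% and 2.16% of genes), and 0 for K4me3 and 1 for K18ac in eaf3 (12.7% and 1.58%).

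MRP20 stood out on the low side for K18ac. It had 60.6 CPM in wild-type H3, 65.6 in H3K4R, 67.2 in H3K36R and 70.2 in the strain labelled bar1, but 33.9 in set2 (37 reads, log2 change -0.96, -1.56 to -0.44) and 22.9 in eaf3 (30 reads, -1.48, -2.15 to -0.94). Its K4me3 differed by -0.09 and -0.19 in the same strains. Against the first set, K4me3 of MRP20 was lower already in the strain labelled bar1, at 101 against 170 CPM. MRP49 had the largest decrease of K18ac in set2 and the next largest after MRP20 in eaf3, from 88.9 in bar1 to 40.4 in set2 (-1.05, -1.59 to -0.58) and 48.2 in eaf3 (-0.78, -1.24 to -0.36), with 83.7 in wild-type H3. After RSM22, the highest K18ac change was on MRPL22 (YNL177C, uL22m) in set2 at 0.38 (0.08 to 0.69) and on RSM10 in eaf3 at 0.25 (-0.18 to 0.68).

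For K4me3, RSM10 (YDR041W, uS10m) was highest in both set2 and eaf3, with 58.1 CPM in the strain labelled bar1, 89.8 in set2 (0.69, 0.10 to 1.33) and 83.0 in eaf3 (0.60, 0.06 to 1.20). The reference value rested on 34 reads, and wild-type H3 had 148, so the reference was the lowest of these libraries. MRPL11 (YDL202W, uL10m) followed in eaf3 at 0.36 (-0.15 to 0.90). The largest decreases were on MRPS17 (YMR188C, uS17m), from 202 to 106 in set2 (-0.84, -1.26 to -0.44) and 113 in eaf3 (-0.74, -1.08 to -0.40). MRPL7 (YDR237W, uL5m) had -0.77 (-1.19 to -0.37) in set2 and MRPL35 -0.68 (-1.01 to -0.35) in eaf3. K36me3 in eaf3 had a median of 0.14, with 3 of 43 MRP genes changed (5.32% of all genes): RSM10 at 1.55 (-0.04 to 4.01) on 28 and 3 reads, RSM25 at 1.05 (0.19 to 2.09) and MRP8 at -1.61 (-3.02 to -0.39). These were named for being the MRP genes past the threshold.

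In H3K4R, which cannot carry K4me3, the MRP genes were lower for K36me3, with a median of -0.24 (other short genes -0.10) and 35 of 43 below 0. Over the first 500 bp the median was -0.39, against -0.20, and beyond it -0.11. Coding reads at or beyond 500 bp made up 63.0% (61.9 to 64.1) in H3K4R and 58.0% in wild-type H3. Other short genes had 57.9% and 55.1%. MRP49 was the 1 MRP gene at least 2-fold changed (1.04% of all genes), at -1.17 (-2.33 to -0.37) on 14 and 33 reads. K18ac had a median of -0.15 with 0 changed (0.216%), and K79me3 -0.02 with 0 changed (0.608%).

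In H3K18R, which cannot carry K18ac, K4me3 on the MRP genes had a median of -0.21 (other short genes -0.04), with 34 of 43 MRP genes below 0 and 0 changed 2-fold (1.84% of all genes). K36me3 had a median of 0.02, with 1 MRP gene changed (1.06%), MRPL32 at -1.31 (-2.25 to -0.59) on 16 and 83 reads. K79me3 had -0.06 with 0 changed (0.471%). Across the 15 comparisons, the medians other than that of the K36me3 pull-down in H3K36R lay between -0.24 and 0.23.

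**Figure D5:**
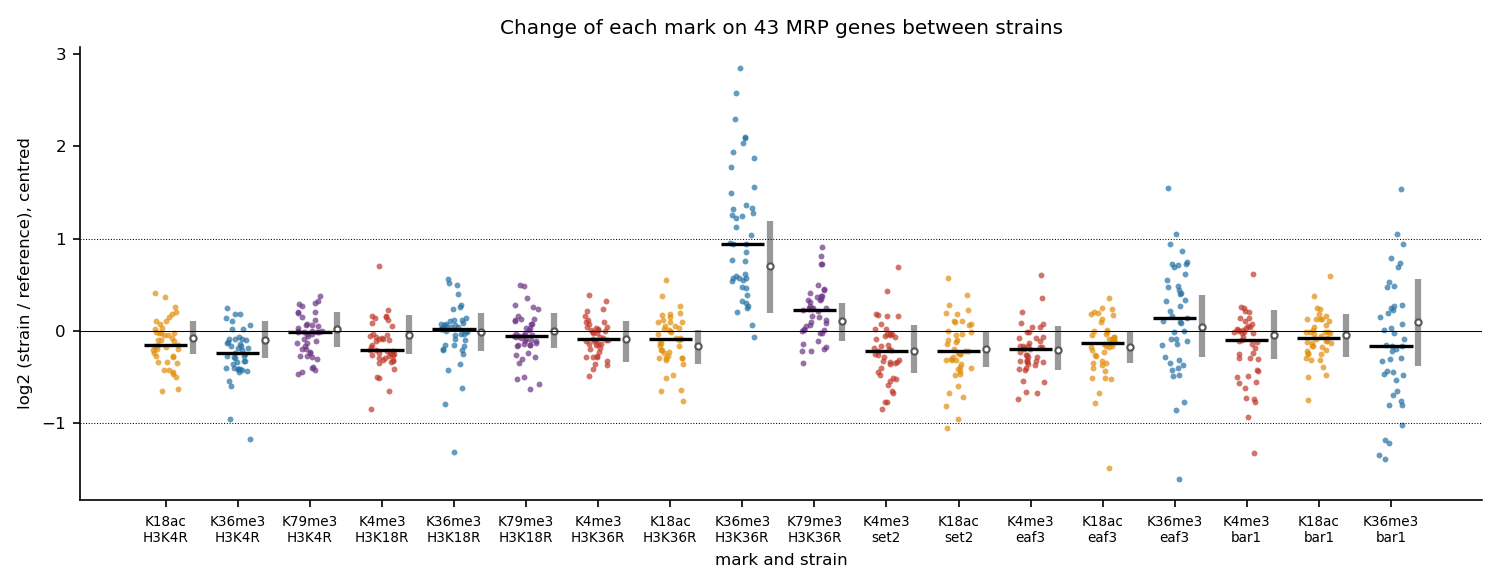
Change of each mark on the 43 MRP genes between a strain and its reference (log2, centred on all genes), 1 library against 1. Points are genes, black lines MRP gene medians, grey bars the quartiles of other short genes with their median as an open circle, and dotted lines 2-fold; the last 3 columns compare the strain labelled bar1 with wild-type H3. The K36me3 pull-down in H3K36R has a median of 0.95 with 20 MRP genes past 2-fold, and the other medians lie between -0.24 and 0.23.

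Pair libraries gave 6 combinations of K4me3 with another mark per strain, in which the log2 ratio of reads beyond 500 bp to reads within it was compared over summed MRP gene reads. The combinations share antibodies and strains and are not replicates. In eaf3 the ratio was higher than in the strain labelled bar1 in 6 of 6 combinations with K4me3, by 0.50 ± 0.41 (SD, n = 6), and in 6 of 6 with K18ac, by 0.65 ± 0.63. Other short genes gave 0.15 ± 0.13 and 0.04 ± 0.30. The largest K4me3 values, 1.06 and 0.99, were set against bar1 libraries with 23 and 7 MRP gene reads beyond 500 bp. In the same combinations other short genes had 0.35 and -0.05. The remaining MRP gene values with K4me3 lay between 0.19 and 0.30. The largest K18ac value, 1.67, was set against the bar1 library of K79me3 followed by K18ac, which has 150 reads, 3 of them on MRP genes and 0 beyond 500 bp. In other short genes the combination with this library gave -0.53, their lowest value. Without that library the MRP gene mean of K18ac in eaf3 was 0.44 ± 0.43, with 5 of 5 higher. Without combinations that have a library under 10000 reads it was 0.38. The mean of other short genes was not recomputed.

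In set2 and H3K36R the combinations differed by whether they used the K36me3 antibody, whose mark both strains lack by their labels. In set2 the 6 combinations without that antibody were all higher than in the strain labelled bar1, by 0.85 ± 0.58 and between 0.31 and 1.84, where other short genes gave 0.15 ± 0.23. The highest, 1.84, again used the bar1 library of 150 reads, where other short genes had -0.21. The next, 1.22, was set against a bar1 library with 23 MRP gene reads beyond 500 bp (other short genes 0.37). The value of 0.73 used a bar1 library of 4281 reads, with 7 MRP gene reads there (other short genes -0.05). The remaining values were 0.31, 0.63 and 0.37, next to 0.20, 0.39 and 0.18 in other short genes. In H3K36R the 6 without it gave 0.09 ± 0.30, with 4 of 6 higher, next to 0.10 ± 0.16 in other short genes. Over all 6 combinations with K4me3, those with the K36me3 antibody included, set2 had 0.28 ± 0.76 (4 of 6 higher) and H3K36R -0.43 ± 0.88 (2 of 6). With K18ac these were 0.35 ± 1.28 (4 of 6) and -0.43 ± 1.05 (4 of 6), and set2 without the library of 150 reads had 0.05 ± 1.18 (3 of 5). The lowest K18ac value in set2, -1.87, used a set2 library of 1001 reads.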

How the data were processed

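The authors deposited read counts per nucleosome of a yeast atlas, 1 column per library, with alignment by Bowtie2 to sacCer3 per the submitters' processing notes; the Bowtie2 version is not given in the sources used here. Counts were raw and whole. A nucleosome was given to a gene when its centre lay in the coding region or up to 300 bp upstream (RefSeq, R64), and counts were summed per gene and divided by the library total (CPM). Levels, pair changes and strain changes are log2 ratios of CPM plus a pseudocount of 1 CPM, centred on the median of all genes with at least 50 H3 reads over the 4 strains of the first set. A zone needed 20 such reads. Called means at least 2-fold after centring.

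The labels give 1 library per combination, so the planned values are descriptions without p-values. Intervals are exact binomial (95%). Named genes are the 3 highest and 3 lowest per mark, the 2 highest and 2 lowest for K4me3 and K18ac in H3K36R, set2 and eaf3, the 4 with the most reads, and the longest and shortest; others were named after their values were seen. Members and lists were chosen with earlier results of these data known. Scripts were tested on simulated data. Python 3.11.15, numpy 2.4.6, pandas 2.3.3, scipy 1.17.1, matplotlib 3.10.9, R 4.3.3 and edgeR 4.0.16 (for an alternative scaling) were used. Sequences and promoter motifs were not analysed here.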

Additional observations from a re-analysis of the deposited data

Results flagged for a closer look

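The distribution of reads along the MRP genes in combinations that include K36me3 went in opposite directions in 2 pairs of strains. The measure was the log2 ratio of reads beyond 500 bp to reads within it, strain minus reference, over 6 combinations. In H3K4R it was higher than in wild-type H3 in 6 of 6 combinations, by 0.54 ± 0.35 (SD, n = 6). Of these, 2 used the K4me3 antibody in a strain that has no K4me3, in libraries of 695 and 3596 reads, and the other 4 gave 0.46 ± 0.28. In H3K36R it was lower in 6 of 6, by -1.67 ± 0.30, and in set2, set against bar1, it was lower in 6 of 6, by -0.86 ± 0.67. Other short genes gave 0.24, -1.01 and -0.71. The lowest set2 value, -1.87, came from K36me3 followed by K18ac, a set2 library of 1001 reads. Its bar1 library held 33 MRP gene reads. In other short genes this combination gave -1.44, and means without it were not computed. The differences between strains were not tested, H3K4R and H3K36R share their reference libraries, and the combinations share antibodies. By their labels, H3K36R and set2 lack lysine 36 methylation.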

How the results depend on the processing

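Of 542 values recomputed for 60 results under 14 alternatives, 440 stayed near the reported value and 101 moved by more. Near meant within the counting error or, for counts, within 1.5 times. For the 6 changes between strains in the ratio of reads beyond 500 bp it meant within the SD over combinations. A further 1, the median of K18ac then K79me3, was on the other side of 0 by more than the counting error. In all 13 medians had the other sign, all of them at most 0.18 in size as reported, for K79me3, for pairs with K79me3 or for K36me3 in H3K18R. The cause was not tested except where fewer genes were tested by construction. None of the 60 results moved when the top 1% of nucleosomes were left out. The zone border at 400 bp and the dropping of combinations with a library under 10000 reads were run on 6 results, the changes between strains in the ratio of reads beyond 500 bp to reads within it, and moved none by more than the SD over combinations. That SD was 0.41 to 1.28, so large shifts could pass as unmoved. The 150-read library was left out after seeing the data, for 2 results. K18ac in set2 then went from 0.35 to 0.05 and still counted as unmoved. No paired analysis was possible because each combination of strain and antibodies is 1 library and carries no replicate number. The limit to libraries of at least 100000 reads and the comparison of the strain labelled bar1 with wild-type H3 were also chosen after seeing the data. The 24 genes below the read minimum had median levels of 1.21 for K4me3, 1.26 for K18ac, -0.74 for K36me3 and -0.16 for K79me3. The median of all genes before centring was 0.28 for the K4me3 level and 0.33 for the K36me3 pull-down in H3K36R, which values without centring include.

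With a pseudocount of 5 CPM, the number of genes at least 2-fold above was 1 for K36me3. There the number at least 2-fold below was 1 for K79me3. There the median pair change was 0.82 for K36me3 then K4me3. There the number changed between strains was 0 for K36me3 in H3K4R and 0 for K18ac in set2. With no read minimum, which tests all 67 genes, the median level was 0.60 for K18ac. There the number of genes at least 2-fold above was 27 for K4me3, 20 for K18ac and 9 for K79me3. There the number at least 2-fold below was 19 for K36me3. There the median pair change was 0.54 for K4me3 then K18ac, -0.41 for K4me3 then K36me3, 0.63 for K18ac then K4me3, 0.79 for K36me3 then K4me3, -0.038 for K36me3 then K79me3, 0.50 for K79me3 then K18ac and -0.50 for K79me3 then K36me3. There the median strain change was -0.025 for K4me3 in H3K36R, 1.14 for K36me3 in H3K36R and 0.26 for K36me3 in eaf3. There the number changed between strains was 2 for K36me3 in H3K4R, 5 for K36me3 in H3K18R, 37 for K36me3 in H3K36R and 7 for K36me3 in eaf3. With at least 100 H3 reads, which leaves 9 genes, the median level was 1.05 for K4me3 and -0.24 for K36me3. There the number of genes at least 2-fold above was 5 for K4me3, 1 for K18ac, 0 for K36me3 and 0 for K79me3. There the number at least 2-fold below was 0 for K36me3 and 0 for K79me3. There the median pair change was 0.63 for K4me3 then K18ac, 0.23 for K4me3 then K79me3, 0.35 for K18ac then K4me3, -0.22 for K18ac then K79me3, 0.68 for K36me3 then K4me3, 0.24 for K36me3 then K18ac, 0.13 for K36me3 then K79me3, 0.41 for K79me3 then K4me3, -0.16 for K79me3 then K18ac and -0.076 for K79me3 then K36me3. There the median strain change was -0.15 for K36me3 in H3K4R, -0.030 for K36me3 in H3K18R, -0.15 for K79me3 in H3K18R, -0.17 for K18ac in H3K36R, 0.049 for K79me3 in H3K36R, -0.29 for K4me3 in set2, -0.023 for K18ac in set2, -0.26 for K4me3 in eaf3 and 0.022 for K36me3 in eaf3. There the number changed between strains was 0 for K36me3 in H3K4R, 0 for K36me3 in H3K18R, 2 for K36me3 in H3K36R, 0 for K18ac in set2, 0 for K18ac in eaf3 and 0 for K36me3 in eaf3. Without nucleosomes that lie in other genes, the number of genes at least 2-fold above was 1 for K36me3. There the median pair change was 0.50 for K79me3 then K18ac. There the median strain change was -0.29 for K4me3 in set2. Over the coding region alone, the median pair change was -0.29 for K4me3 then K36me3, -0.054 for K18ac then K79me3 and 0.80 for K79me3 then K4me3. There the median strain change was -0.14 for K18ac in H3K36R, -0.29 for K4me3 in set2 and 0.26 for K36me3 in eaf3. There the number changed between strains was 2 for K18ac in set2. With library totals and no centring, the median level was 0.99 for K4me3 and 0.62 for K18ac. There the number of genes at least 2-fold above was 9 for K18ac and 1 for K36me3. There the median pair change was -0.43 for K4me3 then K36me3, 1.12 for K36me3 then K4me3, 0.87 for K79me3 then K4me3 and -0.45 for K79me3 then K36me3. There the median strain change was 1.28 for K36me3 in H3K36R, -0.29 for K4me3 in set2, -0.29 for K18ac in set2, -0.29 for K4me3 in eaf3 and -0.22 for K18ac in eaf3. There the number changed between strains was 2 for K18ac in set2. With edgeR TMM factors and no centring, the median level was 0.82 for K4me3, -0.21 for K36me3 and 0.052 for K79me3. There the number of genes at least 2-fold above was 5 for K79me3. There the number at least 2-fold below was 1 for K79me3. There the median pair change was 0.99 for K36me3 then K4me3, 0.41 for K36me3 then K18ac and -0.11 for K79me3 then K18ac. Against H3 summed over the 4 strains, the median level was -0.24 for K36me3 and 0.077 for K79me3. There the number of genes at least 2-fold above was 6 for K4me3, 1 for K18ac, 0 for K36me3 and 0 for K79me3. There the number at least 2-fold below was 7 for K36me3 and 1 for K79me3. Without MRP8, the number at least 2-fold below was 1 for K79me3. Against H3 of the 4 strains with no read minimum, added after seeing the data, the number of genes at least 2-fold above was 10 for K18ac, 0 for K36me3 and 0 for K79me3. There the number at least 2-fold below was 20 for K36me3.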

Other observations

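Libraries too shallow for values by gene gave sums over the MRP genes. The K4me3 library of H3K4R held 31 such reads of 3639, or 0.85%, and the K18ac library of H3K18R 275 of 37544, or 0.73%. The K36me3 library of the strain labelled set2 held 172 of 24149, or 0.71%, where the strain labelled eaf3 had 0.37% and wild-type H3 0.35%. Using the same antibody in both steps in wild-type H3 gave 0.96% for K4me3, 0.71% for K18ac, 0.32% for K36me3 and 0.47% for K79me3, each close to the share with Input.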
